A study of Mus musculus with 13 samples.

Results

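The genes described here are the 5 subunit genes of the muscle acetylcholine receptor (Chrna1, Chrnb1, Chrnd, Chrng and Chrne) and 5 genes of the neuromuscular junction (Musk, Rapsn, Dok7, Lrp4 and Ache). They were chosen by symbol, with earlier results of these data known, and all 10 were found among the 16382 genes of the count table. The samples were cultures of C2C12, a mouse cell line (genotype WT) whose myoblasts fuse into multinucleated myotubes in low serum medium. On day 8 of differentiation, the medium was exchanged for one with 10 µM palmitoylethanolamide (PEA, a fatty acid amide) or with its vehicle, DMSO alone (CON). RNA was taken from both groups after 24 h, and 6 CON and 6 PEA libraries were compared. The experiment was run 3 times with duplicate wells per group, and the labels do not give which libraries shared a run. They were treated as independent, so the p-values measure the spread between libraries, part of which is technical, and may be too small. With the 3 runs of the experiment as units, an exact permutation test could not go below p = 0.10. The protocols name no motor neurons, and the neuron markers Syt1, Syp and Isl1 had group means between 1.23 and 8.35 normalized counts. A normalized count is the estimated count of a gene divided by the depth factor of its library.

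The muscle acetylcholine receptor is a ligand-gated cation channel that opens when the motor nerve releases acetylcholine. The fetal form holds a gamma subunit beside alpha, beta and delta subunits, and after innervation an epsilon subunit takes its place. Agrin, secreted by the nerve and in another form by muscle, binds Lrp4 and activates the kinase MuSK, and with the adaptor Dok7 this leads rapsyn to cluster the receptors under the nerve ending. Acetylcholinesterase breaks down the transmitter in the cleft. In aneural myotubes, receptor genes are driven by myogenic factors that bind E-boxes (letters CANNTG), while Ets family factors act on an N-box (CCGGAA) in genes of synaptic nuclei.

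The windows before the gene starts are shown for 4 receptor subunits because the results below turn on their different levels and differences between the groups. RefSeq (GRCm38.p6) held a window for 7 of the 10 genes, and each window printed is the 250 bases before the start, read 5′ to 3′ on the strand of the gene. Capitals mark each E-box and, in Chrne only, the N-box.
Chrna1 (chr2:73580339-73580588, minus strand): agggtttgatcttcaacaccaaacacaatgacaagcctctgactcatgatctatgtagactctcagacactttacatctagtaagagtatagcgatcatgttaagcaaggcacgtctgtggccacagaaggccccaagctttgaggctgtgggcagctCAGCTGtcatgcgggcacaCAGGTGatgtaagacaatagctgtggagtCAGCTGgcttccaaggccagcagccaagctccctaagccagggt
Chrnb1 (chr11:69795938-69796187, minus strand): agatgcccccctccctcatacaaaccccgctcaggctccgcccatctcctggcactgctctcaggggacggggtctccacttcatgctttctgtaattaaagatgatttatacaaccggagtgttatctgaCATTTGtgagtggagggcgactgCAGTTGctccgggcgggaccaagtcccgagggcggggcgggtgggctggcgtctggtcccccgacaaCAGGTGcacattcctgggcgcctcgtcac
Chrng (chr1:87205561-87205810, plus strand): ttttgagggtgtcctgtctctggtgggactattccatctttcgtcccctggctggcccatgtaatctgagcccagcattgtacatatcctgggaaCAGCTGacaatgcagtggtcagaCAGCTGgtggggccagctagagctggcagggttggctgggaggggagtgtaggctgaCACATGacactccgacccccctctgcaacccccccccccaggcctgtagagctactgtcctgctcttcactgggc
Chrne (chr11:70619195-70619444, minus strand): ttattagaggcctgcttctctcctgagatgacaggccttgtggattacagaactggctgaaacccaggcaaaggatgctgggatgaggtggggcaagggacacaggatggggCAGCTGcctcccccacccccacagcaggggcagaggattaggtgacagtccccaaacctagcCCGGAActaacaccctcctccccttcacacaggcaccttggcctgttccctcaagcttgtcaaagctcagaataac

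Chrna1, Chrnb1, Chrng and Musk each held 3 E-boxes, a number reached by 12.2% of 32851 RefSeq windows of the same length searched on both strands. In Chrna1 and Chrng, 2 of the 3 had the letters CAGCTG, one of the sequences that fit CANNTG, and 1.26% of all windows held at least 2 of these. Musk had 1 with CAGCTG and Chrnb1 none. Chrne had 1 E-box, CAGCTG, whose first base lay 138 bases before the start, and an N-box at 76 bases. At least 1 N-box was present in 12.03% of all windows. These matches describe the letters only. Musk, Dok7 and Ache also had RefSeq windows and are not printed.

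Chrng, the gene of the fetal gamma subunit, was lower after PEA and was the only member to pass the threshold, an adjusted p below 0.05 in edgeR's quasi-likelihood test over the 13142 genes tested. It lies at chr1:87132379-87140416 (plus strand) in GRCm39, the build used for all gene positions that follow, and its exons cover 4203 bases. In CON replicates 1 to 6, Chrng had 6137, 6171, 4723, 5721, 7116 and 5883 normalized counts. In PEA replicates 1 to 6, the values were 4950, 4740, 5094, 3801, 4246 and 4265. Each PEA library was below the CON mean, and the groups overlapped only because CON replicate 3 lay below 3 of the PEA libraries. Group means (± SD, n = 6) were 5958 ± 775.6 for CON against 4516 ± 493.8 for PEA. Chrng decreased by 24.1%, a log2 fold change of -0.40 (SE 0.085, 95% interval -0.58 to -0.22, edgeR adjusted p = 0.00837). The call held with each library left out in turn, with edgeR adjusted p between 0.00107 and 0.0261. So 1 of 9 members tested was called, against 11.0% of all genes in either direction, and 1 of 9 was called lower against 4.74% of all genes. None of the 9 was called higher, against 6.31% of all genes, and none was higher at an unadjusted p under 0.05 or by DESeq2 or limma-voom.

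**Figure D1:**
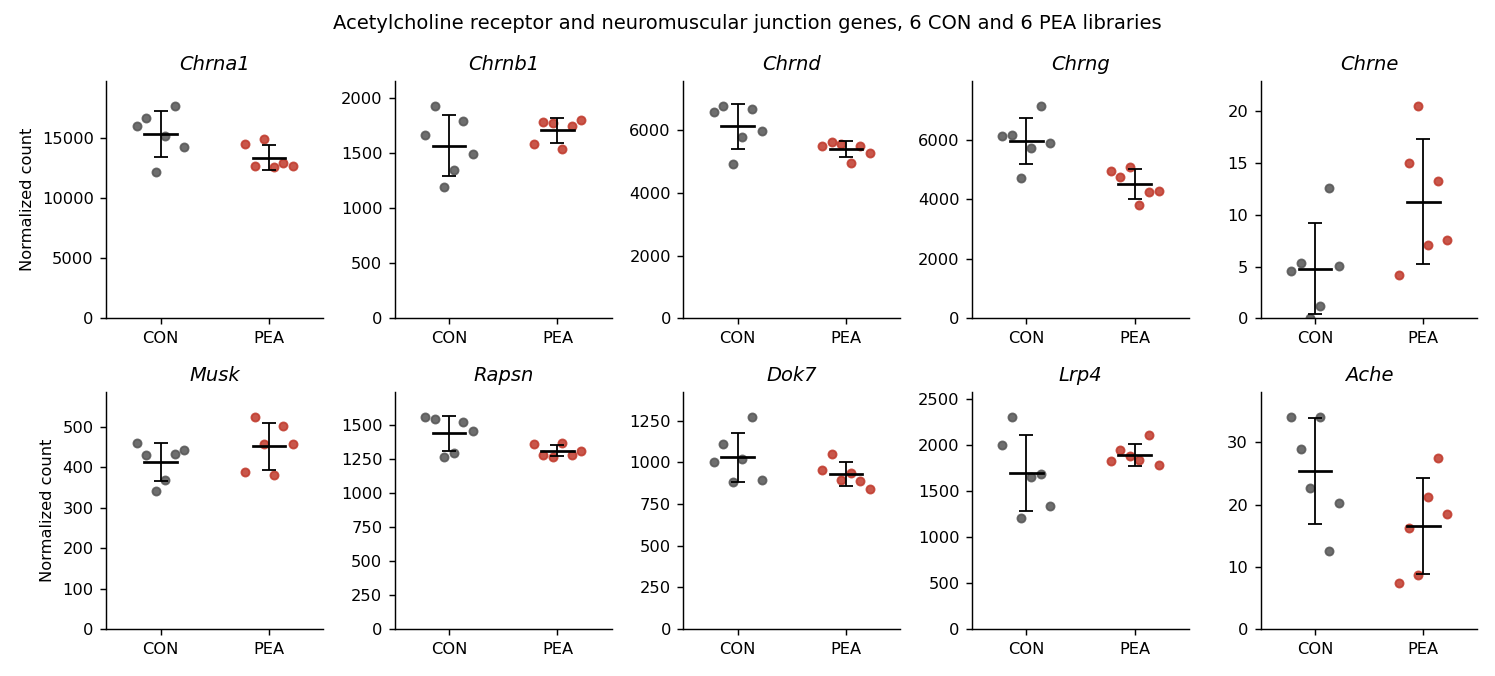
Normalized counts (linear axis from 0) of the 10 genes in each CON (grey) and PEA (red) library, with the mean (bar) and SD (whiskers) of 6 libraries. Chrng separated the groups except for CON replicate 3 at 4723, while Chrne stayed at or below 20.5 normalized counts in every library.

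The alpha and delta subunits had lower point estimates in PEA that did not pass the threshold. Chrna1 encodes the acetylcholine-binding alpha subunit and lies at chr2:73393557-73410835 (minus strand). It had the lowest, median and highest normalized counts of 12133, 15567 and 17599 in CON and of 12527, 12779 and 14901 in PEA. All 6 PEA libraries were below the CON median, and CON replicate 3 was below every PEA library. It differed by -0.19 on the log2 scale (SE 0.076, interval -0.35 to -0.03, edgeR adjusted p = 0.107). An antisense long non-coding gene, Gm30940, shares 601 exon bases (13.2%) with Chrna1, and reads of that stretch cannot be told apart, since the counting is not stated to use strand.

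Chrnd, the delta subunit gene, lies at chr1:87118306-87127795 (plus strand) and ends 4583 bases before Chrng on the same strand. Its lowest, median and highest normalized counts were 4930, 6292 and 6760 in CON and 4960, 5498 and 5623 in PEA. All 6 PEA libraries were below the CON median, and again CON replicate 3 was below all of them. The log2 fold change was -0.18 (SE 0.067, interval -0.32 to -0.04, edgeR adjusted p = 0.0932). Without CON replicate 3, both Chrna1 (-0.25, adjusted p = 0.0161) and Chrnd (-0.23, adjusted p = 0.0102) passed the edgeR threshold, and 3 members in place of 1 were then called. CON replicate 3 was the lowest CON library for 9 of the 10 members, Ache being the exception.

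Chrnb1, the gene of the beta subunit (chr11:69674860-69686773, minus strand), had a point estimate in the other direction. Its lowest, median and highest normalized counts were 1192, 1578 and 1924 in CON and 1537, 1763 and 1803 in PEA. The PEA libraries lay inside the wider CON range. Its edgeR adjusted p was 0.418, for a log2 fold change of 0.12 (SE 0.093, interval -0.07 to 0.32).

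**Figure D2:**
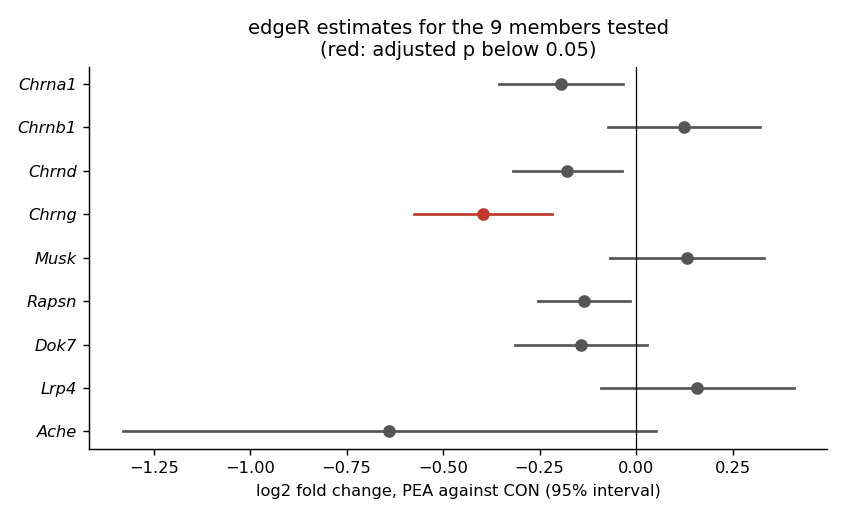
Log2 fold change (PEA against CON, horizontal axis) of the 9 members tested, as edgeR estimates with 95% intervals. Only Chrng (red, -0.40) passed the adjusted threshold, and Chrne is missing because its counts were below the filter.

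The balance between the receptor subunits was compared within each library, where depth cancels. All 6 pairs among Chrna1, Chrnb1, Chrnd and Chrng were compared after the values of the single genes had been seen, as counts per kilobase of exon. The p-values are from two-sided exact permutation tests over 924 assignments and were adjusted over the 6 pairs. Dividing by coding length would multiply these ratios by 0.762 to 1.97, the same in every library of a pair, and leaves the differences between groups as they are. Of the 6 ratios, 5 differed between the groups, and that of Chrna1 to Chrnd did not pass. The ratios share genes, so these are not 5 separate results. Those with Chrng are not separate evidence of its lower level.

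Chrng was lower relative to each of the other 3 subunits. The ratio of Chrnb1 to Chrng had the lowest, median and highest values of 0.379, 0.408 and 0.502 in CON and of 0.516, 0.629 and 0.681 in PEA. The groups did not overlap, with a log2 difference of 0.54 (exact permutation p = 0.00216, the smallest possible with 12 libraries taken as independent, adjusted p = 0.00519). The ratio of Chrna1 to Chrng was 2.24, 2.40 and 2.50 in CON and 2.47, 2.73 and 3.05 in PEA, in the same order of values. It differed by 0.21 on the log2 scale (exact permutation p = 0.00433, adjusted p = 0.00519), and only the lowest PEA library reached into the CON range. The ratio of Chrnd to its neighbour Chrng was 1.09, 1.21 and 1.28 in CON and 1.27, 1.41 and 1.52 in PEA, a log2 difference of 0.22 with the same exact permutation and adjusted p.

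Chrnb1 was higher relative to the alpha and delta subunits. The ratio of Chrnb1 to Chrnd was 0.322, 0.346 and 0.394 in CON and 0.400, 0.439 and 0.474 in PEA (lowest, median and highest). These groups did not overlap (log2 difference 0.31, exact permutation p = 0.00216, adjusted p = 0.00519). Chrna1 to Chrnb1 fell from a median of 5.59 to 4.46 (log2 difference -0.33, exact permutation p = 0.00433, adjusted p = 0.00519). Chrna1 to Chrnd had medians of 1.95 and 1.96 in CON and PEA, with a log2 difference of -0.02 (exact permutation p = 0.734). With each library left out in turn, the exact p of the 5 other ratios stayed between 0.00216 and 0.013.

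**Figure D3:**
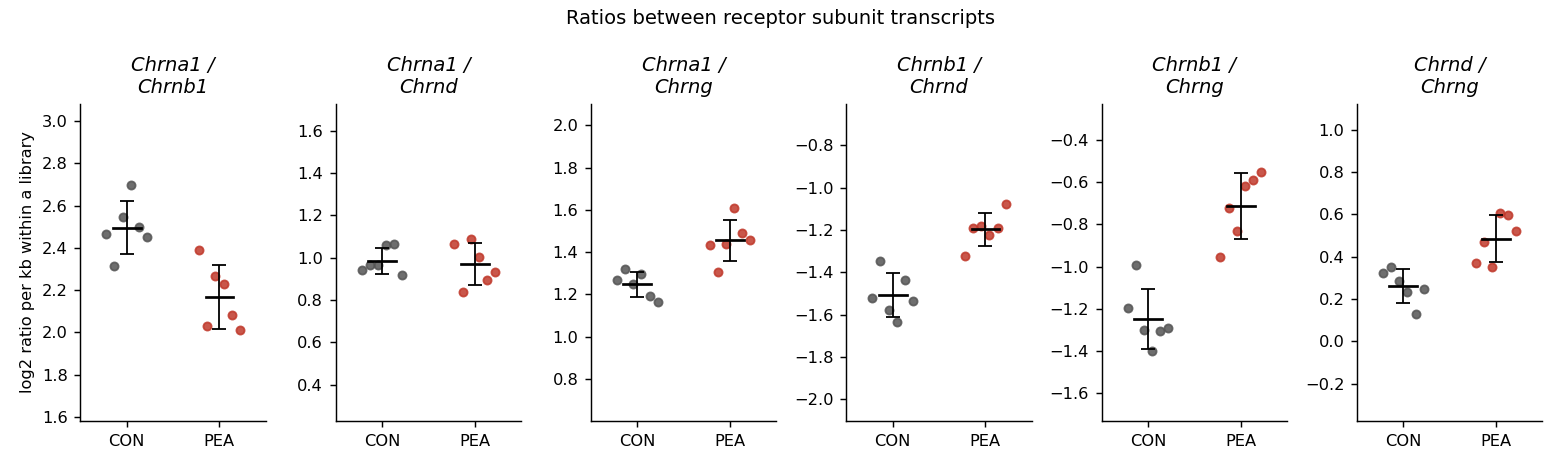
Log2 ratio of exon-length-corrected counts of 2 subunits within a library (vertical axis, the same span in each panel), for 6 CON and 6 PEA libraries with mean and SD. The groups did not overlap for Chrnb1 to Chrnd and Chrnb1 to Chrng, and lay at the same level for Chrna1 to Chrnd (0.99 and 0.97).

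Chrne, the gene of the adult epsilon subunit (chr11:70505707-70510125, minus strand, 1775 exon bases), was close to the limit of detection in these aneural myotubes. Its estimated counts, rounded, were 12, 5, 0, 1, 8 and 5 in CON replicates 1 to 6. In PEA replicates 1 to 6, they were 4, 13, 19, 7, 13 and 9. CON replicate 1, with 12 counts, was also the deepest library. Normalized for depth, CON averaged 4.81 ± 4.4 and PEA 11.3 ± 6.07 (SD over 6 libraries), and 5 of 6 PEA libraries were above the CON mean.

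Chrne did not pass edgeR's filter on low counts. Fitted without the filter, its log2 fold change was 1.26 (SE 0.64, edgeR adjusted p = 0.243). For Chrne alone, on log2(normalized count + 1), the exact permutation test gave an unadjusted p = 0.0498. With 1 library left out, this exact p lay between 0.0108 and 0.11, and it stayed below 0.05 in 2 of 12 cases. A difference in Chrne was therefore not established at this depth.

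The point estimate of the ratio of gamma to epsilon, per kilobase of exon, was above 100 in every library with a Chrne count. The 95% Poisson intervals of PEA replicates 2, 3 and 5 reached down to 77.8, 67.3 and 79.1. By coding length, each value would be 1.84 times as high, with the same difference between the groups. In CON replicates 1, 2, 4, 5 and 6 the ratio was 564, 486, 1987, 239 and 489. The value in CON replicate 4 rested on 1 count and was not set to the floor used for CON replicate 3. In CON replicate 3, where Chrne had no count, the ratio was 646 at a floor of 3 counts. The lower limit of its 95% Poisson interval was 525.7. In PEA replicates 1 to 6 it was 497, 133, 105, 227, 135 and 238. Of the 6 PEA values, 5 were below every CON value, and that of PEA replicate 1 was above 3 of the CON values.

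Over the 11 libraries with a Chrne count, the log2 ratio averaged 9.17 ± 1.11 (SD) for 5 CON libraries and 7.59 ± 0.82 (SD) for 6 PEA libraries. The difference was -1.58 (two-sided exact permutation p = 0.0195). Most of it came from Chrne, whose own difference was not established (log2 fold change 1.26, edgeR adjusted p = 0.243), while the log2 fold change of Chrng was -0.40. The ratio is therefore not separate evidence of a difference in Chrne. With CON replicate 3 entered at a floor of 3 counts, and CON replicate 4 kept at its 1 count, the difference was -1.61 (exact permutation p = 0.013). The value of 1987 in CON replicate 4 rested on 1 count, with a counting interval from 356.6 to 78466 (exact Poisson, 95%). Without that library the difference was -1.14 (exact permutation p = 0.0429). Summed over libraries, 31 Chrne counts stood beside 41386 Chrng counts in CON, and 65 beside 26525 in PEA. The summed ratios were 564 (counting interval 397 to 830) and 172 (135 to 223). The intervals cover counting error only. Chrne counts made up at most 0.400% of the gamma and epsilon counts of a library (Clopper-Pearson 95% interval 0.241% to 0.625% in PEA replicate 3).

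**Figure D4:**
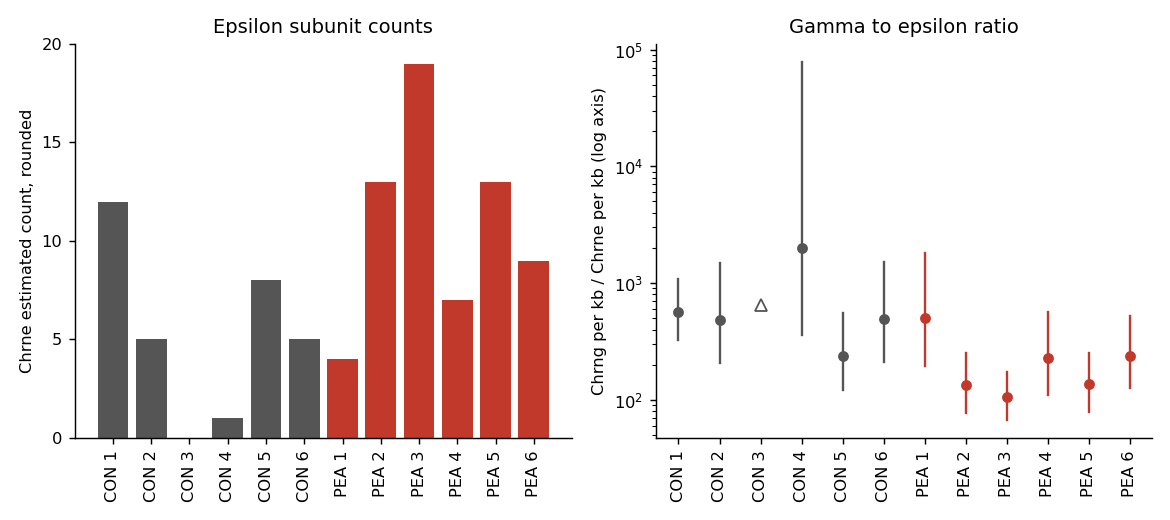
Left, rounded Chrne counts of the 12 libraries (not corrected for depth). Right, the ratio of Chrng to Chrne per kilobase of exon on a log axis with 95% Poisson intervals of the Chrne count. The open triangle is the value of 646 in CON replicate 3 at a floor of 3 counts, drawn without an interval. Of the 11 ratios, those of PEA replicates 2, 3 and 5 lie lowest (133, 105 and 135).

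The 4 genes that gather receptors at the synapse did not pass the threshold in either direction, and their intervals limit the size of any difference. Musk encodes the receptor tyrosine kinase at the centre of the junction (chr4:58285931-58377847, plus strand). Its normalized counts ranged from 341.4 to 460.2 in CON and from 381.5 to 524.5 in PEA (log2 fold change 0.13, interval -0.07 to 0.33, edgeR adjusted p = 0.400). Lrp4, the agrin receptor (chr2:91287797-91344248, plus strand), ranged from 1199 to 2299 in CON and from 1779 to 2107 in PEA. Its log2 fold change was 0.16 (interval -0.09 to 0.41, edgeR adjusted p = 0.416). All 6 PEA libraries were above the CON median and inside the wider CON range.

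Rapsn encodes rapsyn, the scaffold that binds receptors from inside the cell (chr2:90865892-90876082, plus strand). It ranged from 1263 to 1554 in CON and from 1265 to 1364 in PEA, with all 6 PEA libraries below the CON median. Its estimate was -0.13 on the log2 scale (interval -0.25 to -0.01, edgeR adjusted p = 0.133). Dok7, the cytoplasmic activator of MuSK (chr5:35213886-35246018, plus strand), ranged from 883.4 to 1272 in CON and from 842.6 to 1049 in PEA. Its log2 fold change was -0.14 (interval -0.31 to 0.03, edgeR adjusted p = 0.265).

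Ache, the acetylcholinesterase gene (chr5:137285781-137292728, plus strand), was low in all libraries, with 7 to 89 estimated counts. Its normalized counts ranged from 12.6 to 34.1 in CON and from 7.35 to 27.5 in PEA. The log2 fold change of -0.64 had a wide interval, -1.33 to 0.05 (edgeR adjusted p = 0.218), so a decrease could not be told from none at this depth. An antisense gene, Gm57304, shares 302 exon bases (5.78%) with Ache. Musk and Rapsn share 93 and 28 exon bases with antisense genes.

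Per kilobase of exon, the members covered about 3 orders of magnitude. In CON, mean normalized counts per kilobase were 3367 ± 425.5 for Chrna1, 1697 ± 196 for Chrnd and 1418 ± 184.5 for Chrng (SD, n = 6). Chrna1 was above Chrnd in every library. Chrnd and Chrng overlapped in CON, at 1367 to 1874 against 1124 to 1693, and did not overlap in PEA, at 1375 to 1559 against 904.4 to 1212. Rapsn (675.9 in CON) and Chrnb1 (600.7 in CON) came next and overlapped in both groups. Lrp4 (157.6) and Dok7 (147.8) overlapped in CON and not in PEA. Musk followed at 49.1, and Ache (4.87) and Chrne (2.71) came last and overlapped in both groups. Division by coding length in place of exon length exchanged Rapsn with Chrnb1 and Lrp4 with Dok7 in the CON order. By coding length, Lrp4 lay below Dok7 without overlap in both groups. The ranges were 208.3 to 399.3 against 412 to 593.3 in CON and 309 to 366 against 393 to 489.3 in PEA.

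Other genes of the junction pathway were called in both directions, at a share near that of all genes. The 9 pathway lists held 117 genes, of which 89 were tested, and 5 were called higher and 5 lower. That was 11.2% of those tested, beside 11.0% of all genes, and their median log2 fold change was -0.01 beside 0.01 for all genes. The median of the 9 members tested was -0.14. Without CON replicate 2, 17 of the pathway genes were called in place of 10.

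Of 23 agrin and MuSK signalling genes tested, Agrn was called higher and Rhoa and Cdc42 lower. Over all genes, 6.31% were called higher and 4.74% lower. Agrn, which encodes the ligand of Lrp4, had normalized counts of 974.8, 1651, 578, 1087, 836.5 and 655.8 in CON and of 1400, 1974, 1289, 1578, 1803 and 1743 in PEA. Every PEA library was above the CON mean, and only CON replicate 2 reached the PEA range. The log2 fold change of 0.76 (SE 0.19, edgeR adjusted p = 0.0188) was an increase of 69.5%. The table counts genes, so the nerve and muscle forms of agrin, which differ by splicing, were not separated. The small GTPases Rhoa (-0.23, edgeR adjusted p = 0.0128) and Cdc42 (-0.24, adjusted p = 0.0277) act on the actin cytoskeleton downstream of MuSK. The Cdc42 call was lost, with adjusted p up to 0.0725, without CON replicate 6 or PEA replicate 2, 4, 5 or 6. Without CON replicate 2, the list had 5 genes called lower.

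Nrg1, the gene of the ErbB ligand neuregulin 1, was the only gene called of 9 tested in the neuregulin and Ets list. Over all genes, 11.0% were called. Nrg1 ranged from 379.5 to 728.7 normalized counts in CON and from 742.6 to 951.2 in PEA. The groups did not overlap, which held for 4.34% of all genes tested, and the log2 fold change was 0.56 (SE 0.11, edgeR adjusted p = 0.00723). The other 8 genes, which include its receptors Erbb2 and Erbb3 and the Ets factors Etv5 and Gabpa, lay between -0.13 and 0.08 on the log2 scale.

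Of 4 chaperones tested from the endoplasmic reticulum, where receptor subunits fold and assemble, 3 were called higher in PEA, beside 6.31% of all genes. Pdia3 (0.26, edgeR adjusted p = 0.00572), Hspa5 (0.24, adjusted p = 0.0149) and Calr (0.18, adjusted p = 0.037) were called, and Canx was at 0.14 (adjusted p = 0.0548). DESeq2 and limma-voom called all 4 higher. Hspa5 encodes the chaperone BiP and ranged from 13842 to 16456 in CON and from 16851 to 20314 in PEA, without overlap. These proteins fold many secreted and membrane proteins and are not specific to the receptor. The Calr call was lost, with adjusted p up to 0.0911, without CON replicate 1, 3, 5 or 6 or PEA replicate 2, 4, 5 or 6.

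Of 22 tested genes in the list of E-box and activity-dependent regulators, Tcf4, Id3 and Mef2a were called lower and none higher. The shares over all genes were 4.74% and 6.31%. By other tools, DESeq2 and limma-voom also called none higher, and none was higher at an unadjusted p under 0.05. Tcf4 (-0.26, edgeR adjusted p = 0.0069) encodes an E protein that pairs with myogenic factors on E-boxes. Id3 (-0.40, adjusted p = 0.0141) encodes an inhibitor of such pairs. Mef2a (-0.25, adjusted p = 0.0441) encodes a partner of the myogenic factors, and its call was lost, with adjusted p up to 0.0968, without any 1 library other than CON replicates 2 and 3 and PEA replicate 3. Without CON replicate 2 or CON replicate 3, 5 genes of this list were called lower.

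Myog encodes myogenin, the E-box-binding factor of differentiating myotubes. Its lowest, median and highest normalized counts were 9097, 12477 and 14126 in CON and 9240, 10993 and 11284 in PEA. All 6 PEA libraries were below the CON median. Its log2 fold change was -0.19 (SE 0.087, edgeR adjusted p = 0.164), and it passed without CON replicate 3 (adjusted p = 0.0168). Colq, which encodes the collagen tail that anchors acetylcholinesterase, ranged from 53.5 to 121.3 in CON and from 68.3 to 95.9 in PEA (-0.09, adjusted p = 0.827).

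In 5 other pathway lists, no gene was called by edgeR (beside 11.0% of all genes), DESeq2 or limma-voom. These were cholinesterase anchoring and synaptic basal lamina (9 tested, 1 at an unadjusted p under 0.05), the dystrophin and utrophin complex (12 tested, 5 at that level) and glycosylation genes of congenital myasthenia (5 tested, 0). The others were further genes of synaptic myonuclei (4 tested, 0) and other nicotinic and muscarinic receptor genes, of which only Chrnb2 passed the filter (0.32, not past that level). With 1 library left out, the dystrophin and utrophin list had 2 genes called higher without CON replicate 2, 2 lower without CON replicate 3 and 1 lower without CON replicate 4. The basal lamina list had 1 called higher without CON replicate 4. The share of all genes at an unadjusted p under 0.05 is not given here.

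**Figure D5:**
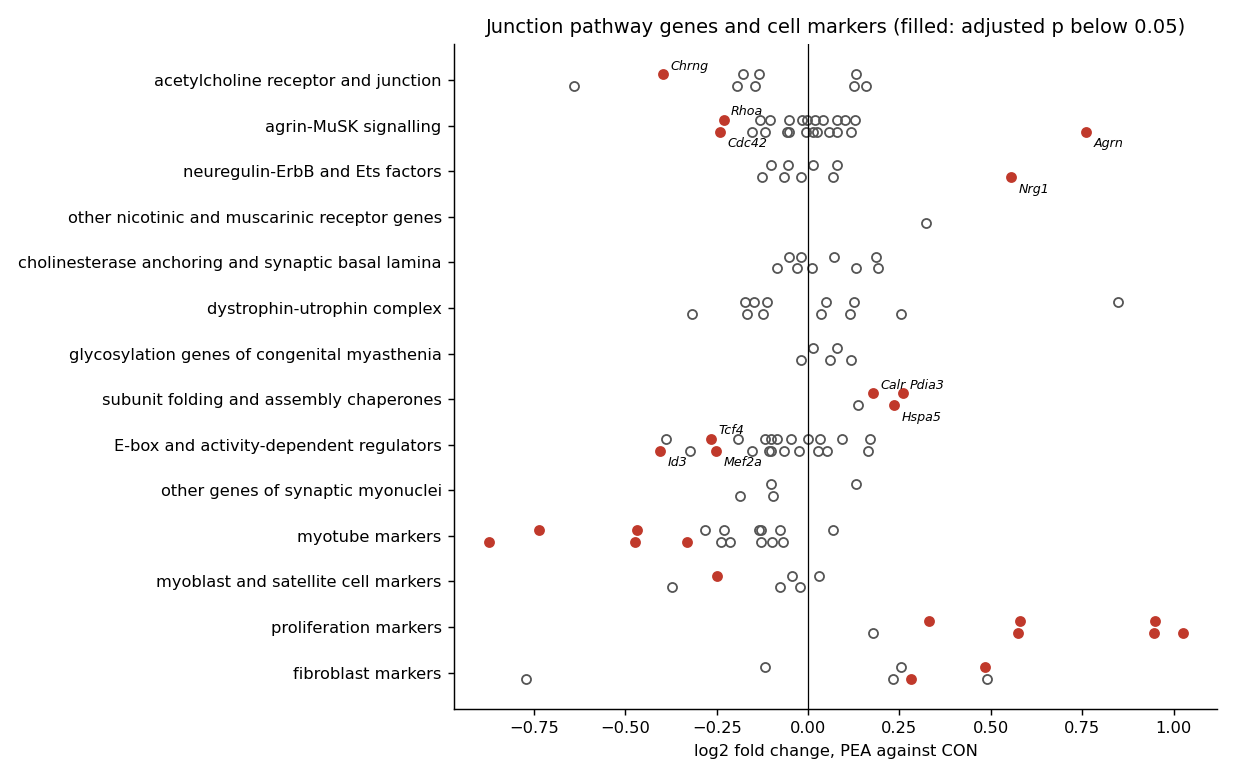
Log2 fold change (PEA against CON) of each tested gene by list, with genes past the adjusted edgeR threshold filled in red and named outside the marker lists. Agrn (0.76) and Nrg1 (0.56) stand furthest to the right among the called pathway genes, and 5 myotube markers and 6 proliferation markers are called in opposite directions.

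Some markers of myotubes and most markers of dividing cells also differed between the groups. Levels within the myotube list differed widely. Des and Acta1 had at least 33168 and 41248 normalized counts in each library. Myh2 had means of 32.8 in CON and 35.6 in PEA. Of 16 myotube markers tested, 5 were called lower and none higher, beside 4.74% and 6.31% of all genes. None was higher by DESeq2, limma-voom or at an unadjusted p under 0.05, and the median log2 fold change was -0.22. The 5 called lower were Tnni2 (-0.47, edgeR adjusted p = 0.000529), Mb (-0.87, adjusted p = 0.00911), Tnnt3 (-0.33, adjusted p = 0.0184), Mymx (-0.47, adjusted p = 0.0238) and Myh8 (-0.74, adjusted p = 0.0474). Tnnt3 was not called without PEA replicate 6 (adjusted p = 0.0514), nor Mymx without CON replicate 5 or PEA replicate 4, 5 or 6 (up to 0.0621). Myh8 was called only without CON replicate 2, 3 or 4 or PEA replicate 3 when 1 library was left out, and not by DESeq2 (adjusted p = 0.062) or from the deposited normalized counts in limma (0.0553). The number called was 8 without CON replicate 3, 3 without CON replicate 5 or PEA replicate 4 or 5, and 2 without PEA replicate 6. The summed level of the 16 overlapped, at 137079 to 209009 in CON and 143536 to 162867 in PEA, and CON replicate 3 had the lowest sum of all 12 libraries.

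Of 7 proliferation markers, 6 were called higher, beside 6.31% of all genes, with a median log2 fold change of 0.58. The smallest p were those of Top2a (0.95, edgeR adjusted p = 0.000937), Ccna2 (0.94, adjusted p = 0.00115) and Cdk1 (0.58, adjusted p = 0.00425). Mki67 had the largest log2 fold change of the list (1.025, edgeR adjusted p = 0.0149). With 1 library left out, 4 to 7 of the proliferation markers were called, 4 without CON replicate 6 or PEA replicate 6 and 7 without CON replicate 3. The call for Mcm5 was lost without CON replicate 1, 4, 5 or 6 or PEA replicate 1, 3 or 6 (adjusted p up to 0.0742), and that for Ccnb1 without CON replicate 6 or PEA replicate 2 or 6 (up to 0.0558). The summed level of the 7 was 6244 to 8960 in CON and 9462 to 11504 in PEA, without overlap. Of 6 myoblast and satellite cell markers tested, Cdh15 was called lower (-0.25, edgeR adjusted p = 0.0444), beside 4.74% of all genes. Of 7 fibroblast markers tested, Dcn (0.48, adjusted p = 0.0439) and Col1a2 (0.28, adjusted p = 0.0456) were called higher, beside 6.31% of all genes. The fibroblast list was not uniform in direction, since Lum was at -0.77 (adjusted p = 0.0851) and Col3a1 at -0.12 (adjusted p = 0.246), neither called and each with 6 of 6 PEA libraries below the CON median. Without CON replicate 2, 4 fibroblast markers were called higher, and without CON replicate 1, 5 or 6 or any of PEA replicates 2 to 6 the number was 0. The calls for Cdh15, Dcn and Col1a2 were fragile, with adjusted p up to 0.104 when 1 library was left out, and DESeq2 did not call Dcn (adjusted p = 0.0512). When 1 library was left out, Cdh15 was called only without CON replicate 3 or PEA replicate 1 or 3. Dcn was called only without CON replicate 2 or 3 or PEA replicate 1, and Col1a2 only without CON replicate 2 or 4 or PEA replicate 1. The sums of these lists overlapped, at 25845 to 31235 against 26357 to 29392 and at 69504 to 91685 against 72838 to 84824. Neuron and Schwann cell markers (summed level 42.9 to 82.8) and macrophage markers (74.3 to 154.7) had no call by edgeR, DESeq2 or limma-voom, and none at an unadjusted p under 0.05. In bulk RNA, fewer myotubes and less RNA per myotube cannot be told apart, and the part of these markers in the lower Chrng was not tested.

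The likeness of other genes to the receptor genes was measured across libraries. After each group was centred on its mean, the 5 genes most like Chrna1 in log2 CPM over the 12 libraries were Tnni1, Mylpf, Stac3, Tnni2 and Tcap, with Pearson's r from 0.942 to 0.960. They encode troponins, a myosin light chain, an adaptor of excitation and contraction and a protein of the Z-disc. For Chrng, the 5 were Hrc, Klhl31, Sbk1, Srl and Sap30, with r from 0.927 to 0.948, of which Hrc and Srl encode proteins of the sarcoplasmic reticulum. Chrng had r of 0.890 with Chrna1, 0.846 with Chrnd, 0.690 with Chrnb1 and 0.842 with Myog. Its r was 0.509 with Musk and -0.583 with Ache. These values share libraries and depth and are a description. Chrne was too low to enter.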

How the data were processed

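Per the labels, STAR, Partek and DESeq2 were the submitters' tools and mm39 their build. The authors aligned reads, quantified Ensembl genes in Partek Flow and deposited an estimated count per gene and library. The second deposited table is a signal, the same counts after median-ratio normalization by the authors. The poly-A libraries held 12354845 to 50397444 estimated counts (median 18420606), and 45.0% of values above 0 were not whole (tolerance 0.001). The labels have 13 entries, since PEA replicate 2 was sequenced again, and its 2 entries share 1 set of values, used as 1 library.

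Counts were rounded and tested with edgeR 4.0.16 (TMM factors 0.988 to 1.02, filter on low counts, Benjamini-Hochberg adjustment over 13142 genes, biological coefficient of variation 0.106) in R 4.3.3. Over all genes tested, log2 fold changes had a median of 0.01. GENCODE for GRCm39 named 16343 of 16382 genes. The tables end at identifier ENSMUSG00000089774, and genes above it were not analysed here, nor were pathway genes without a row. A prior count of 2 entered log2 CPM. Ratios were tested by exact permutation in Python 3.11.15 (numpy 2.4.6, pandas 2.3.3, scipy 1.17.1, figures with matplotlib 3.10.9). The tests were tested on simulated data.

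Members and lists were chosen with earlier results of these data known. Named genes were all members, Agrn, Myog and Colq, every called gene of a list with up to 5 calls or otherwise the 3 with the smallest p, and the 5 genes most like Chrna1 and Chrng. Other genes named beside them (Syt1, Syp, Isl1, Des, Acta1, Myh2, Canx, Chrnb2, Erbb2, Erbb3, Etv5, Gabpa, Mki67, Mcm5, Ccnb1, Lum and Col3a1) were named after their values were seen. Alternatives were DESeq2 1.42.0, limma 3.58.1 (voom, and the deposited normalized counts as log2 with a pseudocount of 1), DESeq2 size factors, no filter, unrounded counts, the replicate block and each library left out. For gamma to epsilon they were coding length, no length, normalized counts and 1 added to both counts. The subunit ratios, the floor for CON replicate 3 and summed counts were added after the data were seen. The design's ratio is undefined in CON replicate 3, which was left out of that test.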

Additional observations from a re-analysis of the deposited data

How the results depend on the processing

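Chrng kept its direction and its call under all 19 alternatives. The number of members called stayed at 1 except without CON replicate 3, where it was 3, so its range with 1 library left out was 1 to 3. Pathway genes called ranged from 7 to 17 with 1 library left out, the 17 being without CON replicate 2, and from 10 to 12 under the other settings. The log2 difference of gamma to epsilon ranged from -1.90 to -1.14 with 1 library left out (exact permutation p from 0.00794 to 0.0476), and was -1.73 with 1 added to both counts and -1.71 for summed counts. With the replicate block, it was -1.41 over 5 same-numbered pairs, lower in PEA in all 5, with an exact p of 0.0625, which is the smallest that 5 pairs allow. The ratio of Chrna1 to Chrng with the replicate block was 0.21 (exact p = 0.0625). With 1 library left out, the ratios ranged from -0.37 to -0.29 for Chrna1 to Chrnb1, -0.039 to 0.010 for Chrna1 to Chrnd, 0.18 to 0.24 for Chrna1 to Chrng, 0.29 to 0.34 for Chrnb1 to Chrnd, 0.50 to 0.59 for Chrnb1 to Chrng and 0.20 to 0.25 for Chrnd to Chrng. Chrna1 to Chrnd turned positive, at 0.010, without PEA replicate 2. Colq ranged from -0.198 to 0.015 and turned positive without CON replicate 1 (0.007) or CON replicate 2 (0.015), far from the threshold. The labels do not say whether libraries of equal number share a run, and no pairing by number was seen. Small run effects could go unseen in this comparison. Deviations from the group means of same-numbered libraries had r between -0.0829 and 0.0649, and 0 of 12 libraries correlated best with their own number. The replicate block gave 1570 called genes in place of 1452, and Cdh15 was then not called (edgeR adjusted p = 0.0536). Depth limits Chrne and Ache, and duplicate wells of 3 experiments may make the p-values too small. No library of any member stood apart from the others of its group by Dixon's test.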
